A study of Mus musculus with 191 samples.

Results

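The prefrontal cortex (PFC) of C57BL/6J mice was profiled 8 h into withdrawal from chronic intermittent ethanol (CIE) vapor. The group was taken by its labels, as every PFC sample whose stated time was 8 h, and it held 16 of the 191 samples of the series: 8 from CIE mice and 8 from control mice, 1 array per mouse. All mice were males, 10 to 12 weeks old at the start. CIE mice went through 4 cycles, a week apart, each of 4 days with 16 h of ethanol vapor and 8 h of room air, and were given pyrazole (1 mmol/kg), an inhibitor of alcohol dehydrogenase, with an ethanol injection (1.6 g/kg) before each exposure. Control mice were given pyrazole with saline and breathed air, so pyrazole, injection and chamber housing were common to both groups. PFC was collected as 5 to 8 punches of 2.0 mm diameter from 300 um sections, and its RNA was read on Illumina bead arrays. Other groups of the same series, 16 PFC arrays each at 0 h and at 120 h and 16 arrays each of amygdala (AMY) and nucleus accumbens (NAC) at 8 h, are used here only to place the 8 h result.

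As background, the PFC plans and restrains behavior, and its pyramidal neurons send glutamatergic output to amygdala and striatum. Ethanol dampens excitation, and in dependent animals its removal is followed by hyperexcitability and by release of adrenal glucocorticoids. Glucocorticoids bind the glucocorticoid receptor, which enters the nucleus and induces genes such as Tsc22d3 and Fkbp5 in neurons, glia and vessels. Neuronal firing induces transcription factors within minutes (Fos, Egr1) and, later, effector genes that act at the synapse (Bdnf, Nptx2, Homer1).

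Raw median intensities of the 16 arrays ran between 99.8 and 115 and 13691 to 14480 probes were detected per array. Cortical neuron genes were present, as the label of the tissue implies: 12 of 16 listed neuron markers, 8 of 12 upper-layer and 11 of 15 deep-layer cortical markers were measured. Markers of adjoining tissue were measured about as often, at 9 of 13 for olfactory bulb, 11 of 18 for thalamus, 11 of 19 for striatum and 16 of 19 for meninges, and only those of choroid plexus and ependyma less often, at 3 of 16, so these counts do not tell cortex from its neighbors. One array stood apart. Array 19, of a CIE mouse, had a median correlation of 0.989 with the other CIE arrays, where the other 15 arrays had 0.9929 to 0.9953 with their own groups. Array 19 also had the highest mean log2 intensity of 9 olfactory bulb markers (9.11). For these markers the lowest, median and highest CIE mouse had 7.42, 7.90 and 9.11, against 7.88, 8.19 and 9.09 in control mice. All 9 had a lower mean in CIE mice (median log2 fold change -0.27), and none passed the test (1 at an unadjusted p of 0.05 or lower, limma). Their part in the results below was not tested beyond the 2 fits given beside the counts: one with the olfactory bulb mean as a covariate, and one without the 4 arrays on which it was highest (CIE array 19 and control arrays 10, 28 and 68). In these punches of whole tissue, fewer cells of a type and less RNA per cell cannot be told apart.

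Of 12835 probes tested, 734 (5.72%) were called at an adjusted p of 0.05 or lower (limma, Benjamini-Hochberg), 332 higher and 402 lower in CIE mice. Most changes were modest in size: called probes had a median absolute value of 0.188 on the log2 scale, and 78.2% of them changed by under 1.2-fold. At the edge of the threshold, Coq4 (log2 fold change 0.14, adjusted p = 0.05) was called and Rbm3 (log2 fold change 0.36, adjusted p = 0.0501) was not. Without array 19 the count was 1297 probes (10.1%), 598 higher and 699 lower. It was 522 (4.07%) with the olfactory bulb covariate, 523 (4.07%) without the 4 arrays, and 161 (59 higher, 102 lower) with the mean levels of thalamic and oligodendrocyte markers as covariates. On the gene level, each gene being represented by its brightest probe, 574 of 8881 genes (6.46%) were called: 243 (2.74%) rose and 331 (3.73%) fell. For 80 genes (0.901%), 23 (0.259%) higher and 57 (0.642%) lower, the 8 CIE mice did not overlap the 8 controls.

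Genes that glucocorticoids induce were higher in CIE mice. Of 27 measured genes of this list, 17 rose and none fell, with a median log2 fold change of 0.31, against 2.74% of all genes that rose and a median of -0.01 over all genes. The mean level of the list was 8.92, 9.01 and 9.24 in the lowest, median and highest CIE mouse, against 8.68, 8.75 and 8.83 in control mice. All CIE mice, array 19 included, thus lay above all control mice. For 8 of the 27 genes the groups did not overlap, beside 0.259% of all genes with every CIE mouse higher. The count was 19 without array 19 (4.63% of all genes rose), 16 with the olfactory bulb covariate (1.89%), 17 without the 4 arrays (1.81%) and 9 with the thalamic and oligodendrocyte covariates.

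The gene of smallest p was Tsc22d3 (GILZ), a leucine zipper protein that restrains inflammatory transcription factors. Its log2 intensity was 10.17, 10.55 and 10.60 in the lowest, median and highest CIE mouse, against 9.64, 9.75 and 9.93 in control mice, a rise of 1.66-fold (log2 fold change 0.74 ± 0.06 SE, adjusted p = 1.64e-06, n = 8 mice per group, limma). No CIE mouse overlapped a control mouse, and the lowest CIE value was that of array 19. A second Tsc22d3 probe rose by 0.58 on the log2 scale.

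Sgk1, a serum- and glucocorticoid-inducible kinase acting on channels and transporters, had 10.84, 11.02 and 11.17 in CIE mice, against 10.09, 10.33 and 10.81 in control mice (log2 fold change 0.61 ± 0.09, adjusted p = 0.00116, limma). The groups did not overlap, although the highest control came close to the lowest CIE mouse. Sgk1 was the only member of the list with a full palindromic glucocorticoid response element (AGAACA, 3 bases of any kind, then TGTTCT) within 250 bases before to 50 bases after a transcription start. This sequence was searched on both strands and was found in 3 of 32851 such RefSeq windows (0.00913%), and in the windows of 1 of the 23 list members that had one. Sgk1 has 6 windows, and the one below (GRCm38.p6, chr10:21993640-21993939, + strand, 5′ to 3′) is shown because it holds the match, in capitals, whose first base lies at -189 from the start. The match describes the letters and is not evidence of a bound site.
Sgk1: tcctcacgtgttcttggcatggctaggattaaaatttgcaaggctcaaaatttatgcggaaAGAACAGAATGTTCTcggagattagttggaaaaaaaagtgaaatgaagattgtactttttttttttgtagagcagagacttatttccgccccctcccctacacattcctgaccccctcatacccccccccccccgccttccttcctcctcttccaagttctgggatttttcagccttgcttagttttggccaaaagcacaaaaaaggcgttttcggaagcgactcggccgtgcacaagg

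Other members act on lipids, vessels and the cell cycle. Plin4, which coats lipid droplets, had 7.24, 7.66 and 8.27 in CIE mice, against 6.78, 6.96 and 7.09 in control mice (log2 fold change 0.82 ± 0.12, adjusted p = 0.000911, limma), with no overlap. Mfsd2a, the transporter that carries lysophospholipids with omega-3 fatty acids across the blood-brain barrier, had 9.17, 9.34 and 9.70 in CIE mice, against 8.62, 8.74 and 8.95 in control mice (0.61 ± 0.07, adjusted p = 0.000232, limma). The cyclin-dependent kinase inhibitor Cdkn1a had 8.56, 8.81 and 9.33 in CIE mice, against 7.80, 8.11 and 8.39 in control mice (0.75 ± 0.10, adjusted p = 0.000581, limma), and all 3 of its probes rose. In Mfsd2a and Cdkn1a, too, every CIE mouse was above every control mouse.

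Fkbp5, the co-chaperone that lowers the affinity of the glucocorticoid receptor for its ligand, had 7.64, 8.05 and 8.57 in CIE mice, against 7.40, 7.50 and 7.74 in control mice (0.52 ± 0.10, adjusted p = 0.00675, limma), with a small overlap. Its counterpart Fkbp4, which aids receptor transport, fell by 0.22 ± 0.06 on the log2 scale (adjusted p = 0.0364, limma), but this call was lost in 10 of the 16 fits that left out 1 mouse. Crhr1, the receptor for corticotropin-releasing hormone, fell by 0.17 ± 0.04 (adjusted p = 0.0233) on 1 of its 2 probes. Of the 8 measured genes of glucocorticoid synthesis, transport and signalling, these 2 fell and none rose, beside 3.73% and 2.74% of all genes. The number that fell was 0 with the olfactory bulb covariate and 2 without the 4 arrays. The other called members of the induced list were Xdh, an oxidase of purine breakdown (log2 fold change 0.37), Angptl4, an inhibitor of lipoprotein lipase (0.42), Nfkbia, the inhibitor of NF-kB (0.38), the glucose transporter Slc2a1 (0.41), the sulfotransferase Sult1a1 (0.61), the small GTPase Rhob (0.34), the mTOR inhibitor Ddit4 (0.31), the protease Htra1 (0.33), the metallothionein Mt2 (0.24), the transglutaminase Tgm2 (0.24) and the transcription factor Klf9 (0.16), whose call was lost in 10 of the 16 fits that left out 1 mouse. In Xdh, Angptl4 and Nfkbia the 8 CIE mice did not overlap the 8 controls.

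**Figure D1:**
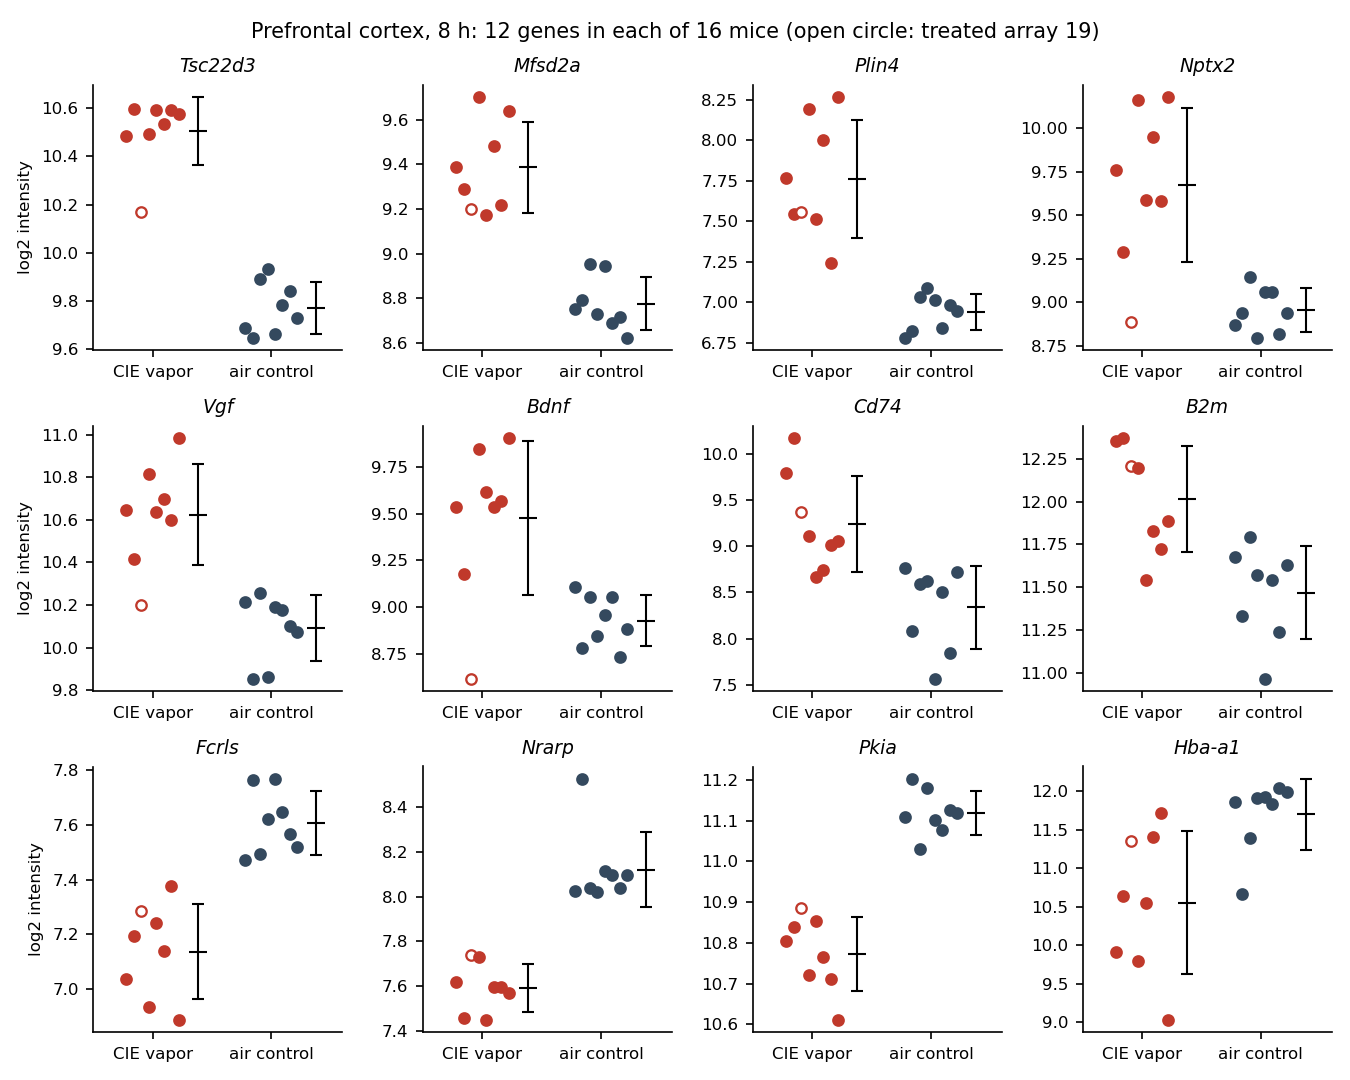
Log2 intensity (y axis) of 12 genes in each of the 8 CIE mice (left, red) and 8 control mice (right, grey), with the mean and SD as a bar beside the points. The open circle is array 19, whose Nptx2 value, 8.89, lies within and whose Bdnf value, 8.61, lies below the control range, while its Tsc22d3 value, 10.17, lies above the highest control, 9.93.

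Effector genes of neuronal activity were the second group that was higher. Of 33 measured, 15 rose and none fell (median log2 fold change 0.23), against 2.74% of all genes. Those that rose included Bdnf, Vgf, Adcyap1, Nrn1, Fscn1, Sorcs3, Rem2, Car12, Chst8, Fam20a and Cdkn1a. The study placed these genes in a PFC time-course cluster chosen on these same samples, so this count and the levels below are not independent evidence. The mean level of the list was 8.82, 9.09 and 9.29 in CIE mice, against 8.76, 8.85 and 8.91 in control mice. The lowest CIE value was that of array 19, which lay among the controls, and the other 7 CIE mice lay above them. The count was 17 without array 19, 16 with the olfactory bulb covariate, 15 without the 4 arrays and 5 with the thalamic and oligodendrocyte covariates.

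Nptx2, a secreted pentraxin that clusters AMPA receptors on inhibitory interneurons, had 8.89, 9.68 and 10.18 in CIE mice, against 8.79, 8.94 and 9.14 in control mice. It rose 1.65-fold (log2 fold change 0.72 ± 0.14, adjusted p = 0.00673, and 0.000262 without array 19, limma). Bdnf, the neurotrophin that strengthens excitatory synapses, had 8.61, 9.55 and 9.91 in CIE mice, against 8.73, 8.92 and 9.11 in control mice (0.55 ± 0.13, adjusted p = 0.0214, and 0.000262 without array 19, limma). In both genes 1 CIE mouse lay low, array 19. A second Bdnf probe rose by 0.42 (adjusted p = 0.00707). Vgf, the precursor of secreted neuropeptides, had 10.20, 10.64 and 10.99 in CIE mice, against 9.85, 10.14 and 10.26 in control mice (0.53 ± 0.09, adjusted p = 0.0026, limma), with a narrow overlap.

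The same list held Cdkn1a, given above, and Adcyap1, the precursor of the peptide PACAP (log2 fold change 0.52 ± 0.09, adjusted p = 0.00284, limma), and Nrn1 (neuritin), an anchored protein of neurite outgrowth (0.37 ± 0.08, adjusted p = 0.0157). Homer1, a scaffold of metabotropic glutamate receptors, rose by 0.28 ± 0.06 (adjusted p = 0.00765) on the brightest of 3 probes, 2 of which were called. Smaller rises were those of the actin-bundling protein Fscn1 (0.23), the sorting receptor Sorcs3 (0.26), the GTPase Rem2 (0.21), the carbonic anhydrase Car12 (0.19), Gadd45g, which acts in stress signalling and DNA demethylation (0.31), the sulfotransferase Chst8 (0.40) and Fam20a (0.40), a pseudokinase of the secretory pathway called on 1 of its 2 probes. The amino acid transporter Slc7a5 (0.20) was called too, and lost its call in 12 of the 16 fits that left out 1 mouse.

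Windows with a sequence like the cAMP response element, TGACGTNA on either strand, were present for 6 of the 23 effector genes that had a window (Bdnf, Homer1, Fscn1, Scg2, Plk2 and Plk3), for 5.62% of all measured genes with a window, and in 963 of all 32851 windows (2.93%). Those of Bdnf (1 of its 7 windows, chr2:109692186-109692485), Homer1 (chr13:93303507-93303806) and Fscn1 (chr5:142960105-142960404) are shown, all + strand, 5′ to 3′ and GRCm38.p6, because these 3 genes rose. Capitals mark the match, which begins at -38, -56 and -45 from the start in the order of the lines below, and is again a description only.
Bdnf: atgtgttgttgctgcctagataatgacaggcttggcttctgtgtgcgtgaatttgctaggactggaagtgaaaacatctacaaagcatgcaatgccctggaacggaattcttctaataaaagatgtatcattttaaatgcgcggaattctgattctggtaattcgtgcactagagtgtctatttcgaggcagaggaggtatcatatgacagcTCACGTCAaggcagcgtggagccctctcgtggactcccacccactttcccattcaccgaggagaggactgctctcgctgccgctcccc
Homer1: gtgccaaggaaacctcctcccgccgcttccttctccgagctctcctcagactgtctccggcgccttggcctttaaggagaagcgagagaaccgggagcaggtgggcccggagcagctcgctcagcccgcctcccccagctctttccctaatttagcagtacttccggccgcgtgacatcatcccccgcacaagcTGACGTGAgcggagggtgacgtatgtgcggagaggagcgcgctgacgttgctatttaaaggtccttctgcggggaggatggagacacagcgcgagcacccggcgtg
Fscn1: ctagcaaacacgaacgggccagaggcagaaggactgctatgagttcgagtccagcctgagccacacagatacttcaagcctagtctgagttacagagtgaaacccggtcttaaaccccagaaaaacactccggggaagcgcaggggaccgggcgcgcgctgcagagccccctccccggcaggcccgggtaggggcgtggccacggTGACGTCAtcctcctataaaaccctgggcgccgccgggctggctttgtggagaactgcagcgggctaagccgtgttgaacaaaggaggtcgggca

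The fast transcription factors stood out less. Of 20 measured immediate early factors 2 rose (2.74% of all genes), Fosb (log2 fold change 0.44 ± 0.10, adjusted p = 0.0136, limma) and Cebpb (0.29 ± 0.07, adjusted p = 0.0148). Of the 20, 18 had a positive fold change, with a median of 0.06. Egr4 had 8.95, 9.85 and 10.55 in CIE mice, against 8.96, 9.29 and 9.69 in control mice (0.48 ± 0.19, adjusted p = 0.153). It passed without array 19 (adjusted p = 0.026). Fos (0.01 ± 0.21, adjusted p = 0.982) and Npas4 (0.01 ± 0.14, adjusted p = 0.967) had fold changes near 0 with wide errors. So did Arc (0.04 ± 0.25, adjusted p = 0.954), which is a synaptic effector of activity and not a transcription factor. Among feedback genes of MAP kinase signalling the phosphatases Dusp4 (0.25, adjusted p = 0.0256) and Dusp14 (0.18, adjusted p = 0.0282) rose, 2 of 16 measured, and the Ras activator Rasgrp1 fell (-0.16, adjusted p = 0.0491). The Dusp4 call was lost without CIE arrays 33, 49 or 67, the Dusp14 call in 5 and the Rasgrp1 call in 14 of the 16 fits that left out 1 mouse.

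**Figure D2:**
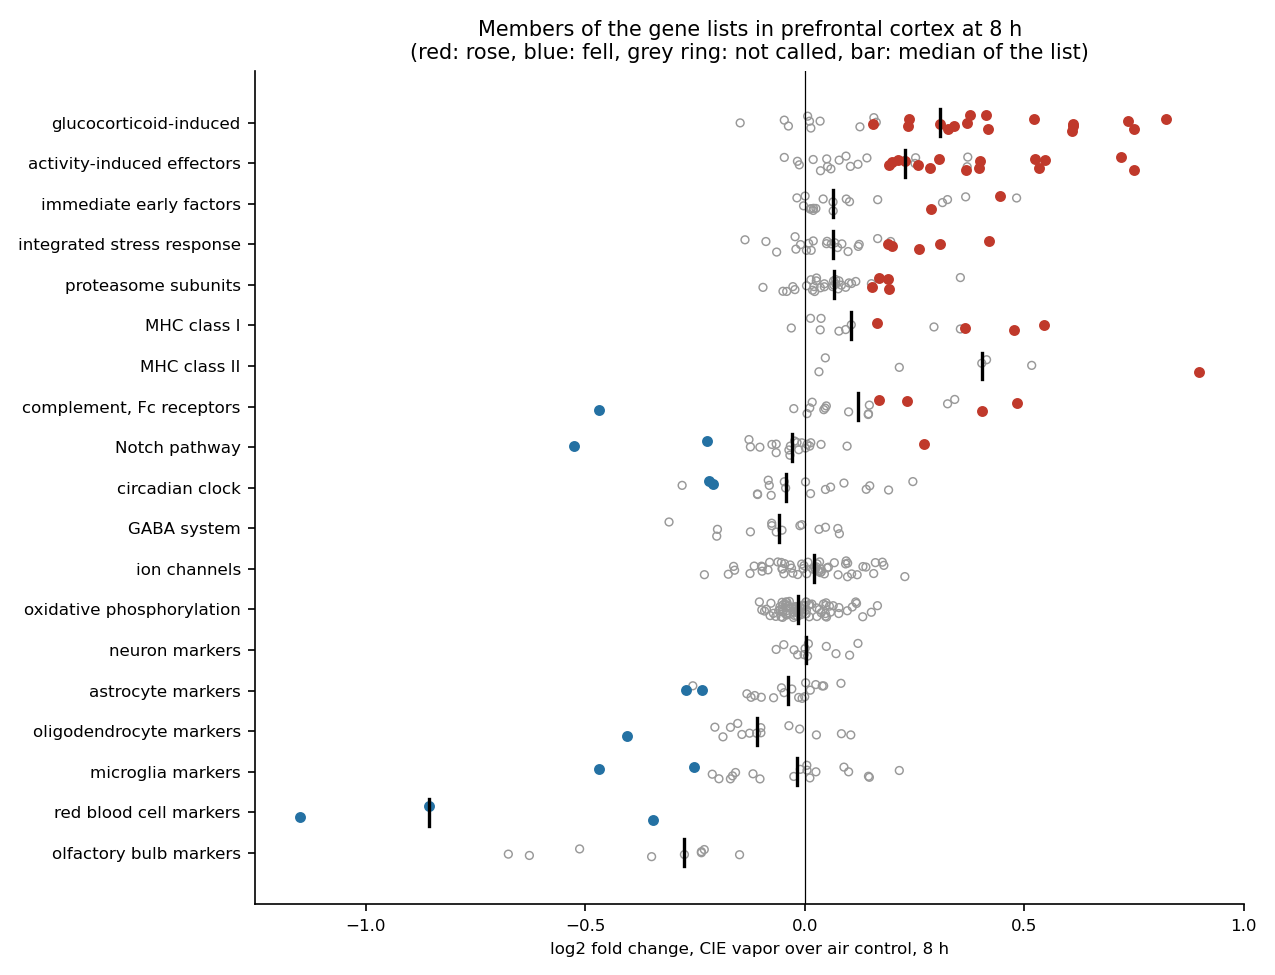
Log2 fold change, CIE over control, at 8 h (x axis) of each measured member of the gene lists (rows), with red for genes that rose, blue for genes that fell, grey rings for genes not called and a black bar at the median of each list. The medians of the glucocorticoid-induced list (0.31) and the activity-induced effectors (0.23) lie right of 0.

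**Figure D3:**
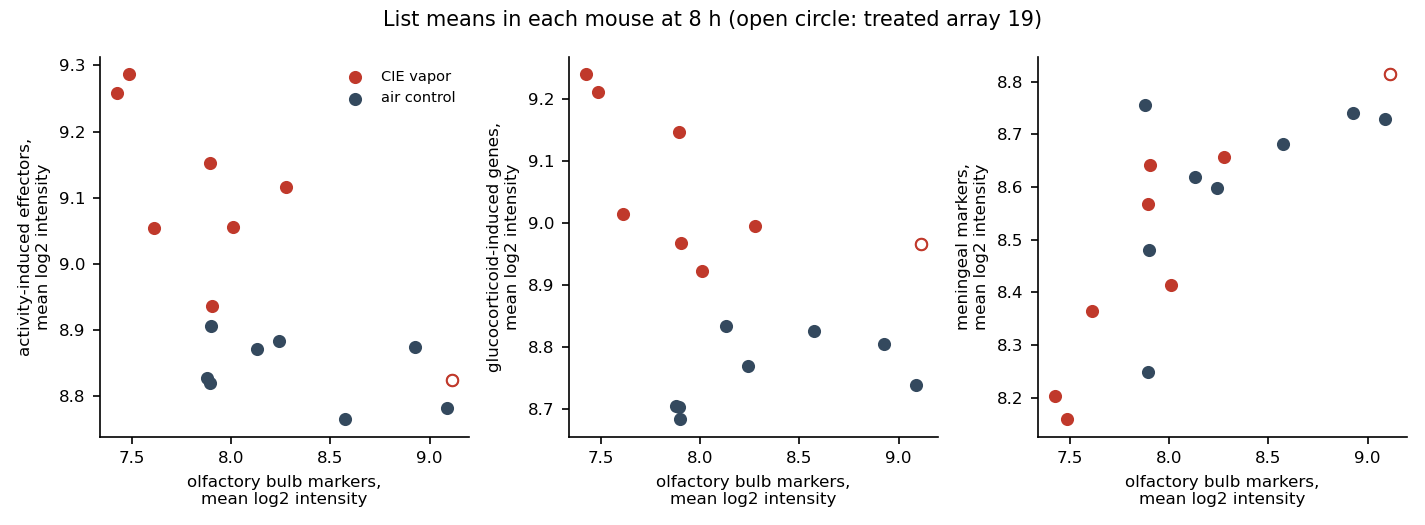
Mean log2 intensity of activity-induced effectors, glucocorticoid-induced genes and meningeal markers (y axes) against that of olfactory bulb markers (x axes) in each mouse, red for CIE, grey for control and an open circle for array 19. At the highest olfactory bulb level of all mice, 9.11, array 19 lies with the controls for the effectors and above them for the glucocorticoid-induced genes.

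The called numbers in lists of receptors, channels and the release machinery were small. Outside the channel lists they are too small to set apart from the share of all genes. None of 54 measured ion channel genes and none of 14 genes of the GABA system was called by limma, against 6.46% of all genes. At an unadjusted p of 0.05 or lower were 17 of the channel genes (31.5%) and 3 of the GABA genes (21.4%), beside 22.2% of all genes. Of 50 genes with the symbol of a potassium channel 1 rose (15 unadjusted), and 5 rose and 1 fell without array 19. Of 29 synaptic vesicle genes 2 rose and 1 fell, and none was called with the olfactory bulb covariate. Among 21 glutamate receptor and scaffold genes, Homer1 and Dlg4 (PSD-95, 0.22 ± 0.05, adjusted p = 0.0225, limma) rose. Without array 19, 4 channel genes rose and 4 fell, and 1 GABA gene fell, beside 11.1% of all genes called (4.63% higher, 6.43% lower). Of 12 neuron markers none was called, at an unadjusted p either. Vip, a peptide of cortical interneurons, was the 1 of 13 interneuron markers that rose (0.31 ± 0.08, adjusted p = 0.0348), a call lost in 9 of the 16 fits that left out 1 mouse, and Rprm, a marker of deep-layer neurons, was the 1 of 11 that fell (-0.33 ± 0.06, adjusted p = 0.00583).

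Some genes of antigen presentation rose, with wide spread between mice. Of 13 measured genes of MHC class I and peptide loading, 4 rose, against 2.74% of all genes, and 12 had a positive fold change (median 0.11), against 47.5% of all genes. B2m, the invariant chain of class I, had 11.54, 12.04 and 12.37 in CIE mice, against 10.96, 11.56 and 11.80 in control mice (0.55 ± 0.13, adjusted p = 0.0162, limma), with overlap. The others were the heavy chains H2-Q7 (0.36), H2-T23 (0.48) and H2-M3 (0.16), of which H2-Q7 has close paralogs that its probe may also detect. The H2-M3 call was lost in 9 of the 16 fits that left out 1 mouse. The count was 2 with the olfactory bulb covariate (1.89% of all genes), 1 without the 4 arrays (1.81%) and 0 with the thalamic and oligodendrocyte covariates. Cd74, the invariant chain of class II, had 8.67, 9.08 and 10.17 in CIE mice, against 7.56, 8.55 and 8.77 in control mice. It rose 1.87-fold (log2 fold change 0.90 ± 0.21, adjusted p = 0.0161, limma), and all 7 class II genes had a positive fold change, Cd74 alone being called. H2-Eb1 (0.52 ± 0.17, adjusted p = 0.0746) and H2-Aa (0.40 ± 0.17, adjusted p = 0.18) did not pass.

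The core of the interferon response element (GAAA, 2 bases of any kind, then GAAA again, on either strand) was found for 3 of the 12 class I genes with a window (B2m, H2-T23 and Psme1), beside 3.61% of all measured genes with a window and 3.44% of all windows. The B2m window (GRCm38.p6, chr2:122147437-122147736, + strand, 5′ to 3′) is shown with its match, at -139, in capitals, as the called gene whose protein all class I molecules share.
B2m: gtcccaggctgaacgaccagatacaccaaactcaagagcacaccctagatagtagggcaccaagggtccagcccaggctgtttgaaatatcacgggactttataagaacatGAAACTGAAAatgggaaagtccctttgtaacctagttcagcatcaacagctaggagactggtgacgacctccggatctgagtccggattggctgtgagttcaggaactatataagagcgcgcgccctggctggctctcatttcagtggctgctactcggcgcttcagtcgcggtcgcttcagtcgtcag

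Of 24 measured interferon-induced genes none rose (6 were at an unadjusted p of 0.05 or lower, limma) and 17 were positive (median 0.10). Irf3, a transcription factor upstream of type I interferon, fell by 0.27 ± 0.05 (adjusted p = 0.00504, limma) on 1 of 3 probes. The GTPase Irgm1 rose on its dimmer probe (0.57, adjusted p = 0.0284) and not on its brighter one (0.16, adjusted p = 0.279). The dimmer-probe call was lost without CIE array 3 or control arrays 10, 36 or 60. Of 35 measured NF-kB and cytokine genes 6 rose and 1 fell, against 2.74% and 3.73% of all genes. The number that rose was 3 with the olfactory bulb covariate, 5 without the 4 arrays and 2 with the thalamic and oligodendrocyte covariates. They included Nfkbia, the chemokines Ccl5 (0.40 ± 0.08, adjusted p = 0.00905), Cx3cl1 (0.18, adjusted p = 0.0286) and Ccl25 (0.24, adjusted p = 0.0336), and the chemokine Cxcl12, which fell (-0.28 ± 0.07, adjusted p = 0.0186) on 1 of 3 probes. The calls of Cx3cl1 and Ccl25 were lost in 8 and 7 of the 16 fits that left out 1 mouse.

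Fc receptors and other myeloid genes differed in direction. Of 18 genes on a list of complement, Fc receptor and other myeloid genes 4 rose, beside 2.74% of all genes. Of the 4, 2 were Fc receptors: the inhibitory Fcgr2b (0.23 ± 0.04, adjusted p = 0.00266, limma) and the activating Fcgr3 (0.40 ± 0.07, adjusted p = 0.00381). The others were Pglyrp1, which binds bacterial peptidoglycan (0.48 ± 0.07, adjusted p = 0.000804), and Alox5ap, which serves leukotriene synthesis (0.17 ± 0.05, adjusted p = 0.034, lost in 9 of the 16 fits that left out 1 mouse). The 1 that fell was Fcrls, a scavenger-type receptor known as a marker of mouse microglia. It had 6.89, 7.17 and 7.38 in CIE mice, against 7.47, 7.59 and 7.77 in control mice (-0.47 ± 0.07, adjusted p = 0.000867), with no overlap. Fcrls and Gpr34 (-0.25 ± 0.05, adjusted p = 0.0076) were the 2 of 20 microglial markers that fell (3.73% of all genes), and none rose. The mean level of the microglial markers was 7.88, 8.08 and 8.25 in CIE mice, against 8.01, 8.10 and 8.22 in control mice, which overlapped. P2ry12, the purine receptor of resting microglia, was at -0.20 ± 0.06 (adjusted p = 0.0758).

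Transcripts of blood cells differed in opposite directions. All 3 measured red cell genes fell and 2 of 4 leukocyte markers rose, beside 3.73% and 2.74% of all genes. Hba-a1, alpha-globin, had 9.03, 10.59 and 11.72 in CIE mice, against 10.67, 11.88 and 12.03 in control mice (-1.15 ± 0.32, adjusted p = 0.0384, limma), the largest fall in size, and this call was lost in 11 of the 16 fits that left out 1 mouse. The beta-globin gene Hbb-bt fell by 0.86 ± 0.19 (adjusted p = 0.0118) and Alas2, the erythroid enzyme of heme synthesis, fell by 0.34 ± 0.07 (adjusted p = 0.00731), with overlap in all 3. The globins have near-identical copies that these probes may not tell apart. Of 4 measured leukocyte markers the neutrophil genes S100a8 (0.84 ± 0.23, adjusted p = 0.0344) and S100a9 (0.50 ± 0.14, adjusted p = 0.0484) rose, with calls lost in 8 and 10 of the 16 fits that left out 1 mouse. None of the red cell and leukocyte genes was called with the thalamic and oligodendrocyte covariates, and without the 4 arrays the leukocyte genes were not. How much blood each punch held was not tested.

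Among vessel markers, endothelial genes split: of 16 measured, Mfsd2a, Slc2a1 and Ly6c1 (0.40 ± 0.09, adjusted p = 0.0162, limma) rose, and Itm2a (-0.29 ± 0.06, adjusted p = 0.00814), the glutamine transporter Slc38a5 (-0.26, adjusted p = 0.0281) and the phospholipid transfer protein Pltp (-0.22, adjusted p = 0.0336) fell. Over all genes 2.74% rose and 3.73% fell. In Itm2a no CIE mouse overlapped a control. The number of endothelial markers that fell was 1 in both olfactory bulb fits and 0 with the thalamic and oligodendrocyte covariates. Slc38a5 lost its call in 5 and Pltp in 8 of the 16 fits that left out 1 mouse. The mean of the endothelial list was 8.49, 8.56 and 8.59 in CIE mice, against 8.44, 8.5 and 8.60 in control mice, and these ranges overlapped. Vtn, the vitronectin of mural cells, was the 1 of 12 mural markers that fell (-0.31 ± 0.06, adjusted p = 0.00847).

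A pair of Notch-induced genes fell. Notch is the contact-dependent pathway that keeps glial and endothelial cells in their state. Nrarp, which is induced by Notch and dampens it, had 7.45, 7.60 and 7.74 in CIE mice, against 8.02, 8.07 and 8.53 in control mice (-0.53 ± 0.06, adjusted p = 0.000232, limma), with no overlap. Hes5, a target repressor, fell by 0.22 ± 0.04 (adjusted p = 0.00345) on 1 of 2 probes, and the endothelial receptor Notch4 rose by 0.27 ± 0.06 (adjusted p = 0.0135). These were the 3 called genes of 22 measured in the pathway, beside 2.74% of all genes that rose and 3.73% that fell. The pathway as a whole had a median of -0.03.

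A few glial genes fell, and the called number alone is too small to set them apart from the 3.73% of all genes that fell. Positive were 30% of astrocyte and 20% of oligodendrocyte markers, beside 47.5% of all genes. At an unadjusted p of 0.05 or lower (limma) were 30% and 40%, beside 22.2%. The list medians were -0.04 and -0.11, and -0.02 and -0.06 with the olfactory bulb covariate. The mean level of astrocyte markers was 9.02 (SD 0.04) in CIE mice, against 9.09 (SD 0.03) in control mice. In astrocytes, Plpp3, a lipid phosphatase (-0.27 ± 0.05, adjusted p = 0.00686, on 1 of 2 probes, limma), and the neurotensin receptor Ntsr2 (-0.23 ± 0.06, adjusted p = 0.0325, lost in 9 of the 16 fits that left out 1 mouse) were the 2 of 20 markers that fell, and 1 fell in either olfactory bulb fit. Opalin, a late myelin protein of oligodendrocytes, had 7.36, 7.54 and 7.85 in CIE mice, against 7.81, 7.98 and 8.16 in control mice (-0.41 ± 0.07, adjusted p = 0.00201), overlapping at a single pair of values. It was the 1 of 15 oligodendrocyte markers that passed. Their mean level was 8.83, 8.94 and 9.12 in CIE mice, against 8.95, 9.09 and 9.12 in control mice. Gpr17, which marks early oligodendrocyte cells, fell by 0.25 ± 0.07 (adjusted p = 0.0284, limma). Its call was lost in 5 of the 16 fits that left out 1 mouse, and without the 4 arrays (adjusted p = 0.101, limma). Of 8 measured markers of oligodendrocyte precursors 1 rose and 1 fell, beside 2.74% and 3.73% of all genes. Mfge8, a secreted protein that tags cells for engulfment and is abundant in astrocytes, fell on both probes (-0.35 ± 0.05 and -0.33). Mfge8 was chosen after its values were seen.

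Single genes of fuel use and protein stress rose. In glycolysis, insulin and hypoxia signalling 5 of 34 rose (2.74% of all genes), Slc2a1 and Ddit4 of the lists above among them, and Irs2, the insulin receptor substrate, with 9.01, 9.52 and 10.30 in CIE mice, against 8.82, 9.11 and 9.24 in control mice (0.54 ± 0.14, adjusted p = 0.0272, limma). The Irs2 call was lost without CIE arrays 33 or 49 or control array 10. The list's count was 3 with the olfactory bulb covariate, 4 without the 4 arrays and 0 with the thalamic and oligodendrocyte covariates. Txnip, which binds thioredoxin and lowers glucose uptake, had 7.74, 7.87 and 8.08 in CIE mice, against 7.51, 7.56 and 7.64 in control mice (0.33 ± 0.04, adjusted p = 0.000785), with no overlap, and Srxn1, which repairs peroxiredoxins, rose on all 3 probes (brightest 0.21 ± 0.04, adjusted p = 0.00938). With Mt2 they were the 3 of 40 redox genes that rose, and 2 fell, beside 2.74% and 3.73% of all genes. Acss1, the mitochondrial enzyme that activates acetate, the end product of ethanol breakdown, had 8.12, 8.45 and 8.64 in CIE mice, against 8.69, 8.74 and 8.91 in control mice (-0.34 ± 0.06, adjusted p = 0.0026), with no overlap. It was the 1 of 10 genes of ethanol and acetate metabolism that was called.

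In the integrated stress response 5 of 26 rose (2.74% of all genes), among them Slc7a5 and Ddit4, given above, Chac1, which degrades glutathione (0.42 ± 0.11, adjusted p = 0.0371, limma), Ddit3 (CHOP, 0.26 ± 0.07, adjusted p = 0.048) and Sars, a tRNA synthetase (0.19 ± 0.05, adjusted p = 0.0235). Chac1 and Ddit3 lost their calls in 11 and 12 of the 16 fits that left out 1 mouse. The list's count was 3 with the olfactory bulb covariate, 1 without the 4 arrays and 0 with the thalamic and oligodendrocyte covariates. Of 33 proteasome subunits 4 rose (2.74% of all genes) and 28 were positive (47.5% of all genes), with a median of 0.07. The number that rose was 1 in both olfactory bulb fits and 0 with the thalamic and oligodendrocyte covariates. Of 21 chaperones of the endoplasmic reticulum 20 were positive with 1 called (median 0.08), and without array 19 the called number was 5. Heat shock genes had 1 rise and 2 falls among 29, beside 2.74% and 3.73% of all genes. They were Cirbp, the cold-inducible RNA-binding protein (0.29 ± 0.06, adjusted p = 0.00727), Fkbp4, given above, and Dnaja4 (-0.22 ± 0.04, adjusted p = 0.00352, no overlap).

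Of 19 measured clock genes 2 fell and none rose, beside 3.73% and 2.74% of all genes. Nr1d1 (REV-ERBa), the repressor of Bmal1, fell by 0.21 ± 0.04 (adjusted p = 0.00676, limma) on both of its probes, and Tef, a PAR-domain factor, fell by 0.22 ± 0.06 (adjusted p = 0.037) on 1 of 2, a call lost in 11 of the 16 fits that left out 1 mouse. These were the 2 called clock genes, and 1 was called with the olfactory bulb covariate. Of the 19 clock genes 47.4% had a positive fold change, beside 47.5% of all genes, so the list as a whole was not shifted in sign. Dbp, of the same family as Tef, had 10.59, 10.86 and 11.19 in CIE mice, against 10.77, 11.14 and 11.42 in control mice (-0.28 ± 0.08, adjusted p = 0.0568), and passed without array 19 (adjusted p = 0.0118). Per2 was at 0.25 ± 0.08 (adjusted p = 0.0703).

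The fall of smallest p was that of Pkia, an inhibitor of protein kinase A, which had 10.61, 10.78 and 10.89 in CIE mice, against 11.03, 11.11 and 11.20 in control mice (-0.34 ± 0.04, adjusted p = 0.000126, limma). The groups did not overlap. Lrrc75a (-0.38 ± 0.04, adjusted p = 0.000152, both probes), the carboxypeptidase inhibitor Lxn (-0.36 ± 0.05, adjusted p = 0.00116), Tril, an accessory of toll-like receptor 4 (-0.35 ± 0.07, adjusted p = 0.00943), and Slc25a38, the mitochondrial glycine carrier (-0.29 ± 0.04, adjusted p = 0.000581, all 3 probes), also had no overlap. Rasl10a, a Ras-like protein, fell by 0.42 ± 0.07 (adjusted p = 0.00266). Among the 12 largest falls, Clk4, a splicing kinase (-0.37), fell on 1 of 3 probes, and Tubb2b, a tubulin (-0.40), fell on 1 of 5 with a call lost in 13 of the 16 fits that left out 1 mouse. Upf2, of nonsense-mediated decay (-0.24 ± 0.03, adjusted p = 0.000636), Wnt7a, a signal of neurons to vessels and synapses (-0.32 ± 0.07, adjusted p = 0.00938), and Tnnc1, a troponin (0.51 ± 0.07, adjusted p = 0.00108), were chosen after their values were seen, and Upf2 and Tnnc1 had no overlap.

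Of 37 measured genes that the study grouped by their time course in PFC, 16 rose and 5 fell at 8 h, beside 2.74% and 3.73% of all genes. The study chose that list by time course on these same samples, so neither this count nor that of differences between times is independent evidence. Of the 37, 15 had a larger and 8 a smaller effect at 8 h than at 0 h, beside 1.8% and 2.56% of all genes. Members that belong to no list above included Arpp21, a regulated phosphoprotein (0.37 ± 0.08, adjusted p = 0.00802, on 1 of 2 probes, limma), which rose, and Wwp2, a ubiquitin ligase (-0.20 ± 0.04, adjusted p = 0.0037), and Lsm10, of histone mRNA processing (-0.23 ± 0.04, adjusted p = 0.0037), which fell.

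The next question was whether the 8 h effect differed from that at the end of exposure. At 0 h, 190 PFC probes (1.48%) were called, and the 8 h effect differed from the 0 h effect for 492 probes (3.83%), 217 with a larger value at 8 h and 275 with a smaller one. Without array 19 the count was 883. The groups at each time are separate mice with their own controls.

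Many activity effectors differed. Of the 33, 14 had a larger effect at 8 h, beside 1.8% of all genes, and none a smaller one. The list shares Bdnf, Vgf and the other genes named above with a cluster that the study chose by time course on these same samples. The count of differences is thus not independent evidence. At 0 h, 2 of the 33 had risen (0.89% of all genes) and 4 had fallen (0.799%), with a median of -0.07. Nptx2 at 0 h had 7.86, 8.34 and 8.48 in CIE mice, against 8.54, 8.73 and 9.0 in control mice (log2 fold change -0.52, adjusted p = 0.0133, limma), where it was 0.72 at 8 h. The difference of the effects was 1.24 (adjusted p = 2.63e-06). Bdnf at 0 h had 8.14, 8.35 and 8.84 in CIE mice, against 8.77, 8.88 and 9.17 in control mice (-0.49, adjusted p = 0.0089), and its effect at 8 h was larger by 1.04 (adjusted p = 4.5e-05). Both genes were thus lower in CIE mice at 0 h and higher at 8 h. Galnt9, a glycosyltransferase, had -0.41 (adjusted p = 0.0245) at 0 h and 0.44 (adjusted p = 0.00938) at 8 h, and Nrn1 had -0.32 (adjusted p = 0.0277) and 0.37 (adjusted p = 0.0157). Vgf differed by 0.68 (adjusted p = 0.000341), Homer1 by 0.47 (adjusted p = 0.000139) and Egr4 by 0.97 (adjusted p = 0.00431).

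Genes with a smaller effect at 8 h included Dbp, at 0.52 (adjusted p = 1.51e-05, limma) at 0 h and -0.28 at 8 h, a difference of -0.80 (adjusted p = 6.31e-08). Nrarp had 0.32 (adjusted p = 0.156) at 0 h and -0.53 at 8 h (difference -0.85, adjusted p = 2.99e-05). Rasl11b, a Ras-like protein, had 0.56 (adjusted p = 0.00415) at 0 h and -0.21 (adjusted p = 0.234) at 8 h. Calb2, the calretinin gene (difference -1.62, adjusted p = 0.0396), and Ntng1, a netrin-like adhesion protein (-0.78, adjusted p = 0.0437), had smaller effects at 8 h too. The median effect of the olfactory bulb list was 0.43 at 0 h and -0.27 at 8 h, and that of meningeal markers was 0.17 at 0 h and -0.15 at 8 h. The part of these markers in the differences was not tested.

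Glucocorticoid-induced genes had the same sign at both times: the median of the 27 was 0.24 at 0 h, where 2 rose (0.89% of all genes), and 1 differed between times, Mfsd2a (0.46 larger at 8 h, adjusted p = 0.0193, limma). Tsc22d3 was at 0.36 (adjusted p = 0.238) at 0 h and Plin4 at 0.55 (adjusted p = 0.135). Fcrls had fallen at 0 h too (-0.45, adjusted p = 0.0163). Gadd45g (0.35, adjusted p = 0.013), Htra1 (0.37, adjusted p = 0.0118) and Xdh (0.30, adjusted p = 0.0103) were up at 0 h.

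**Figure D4:**
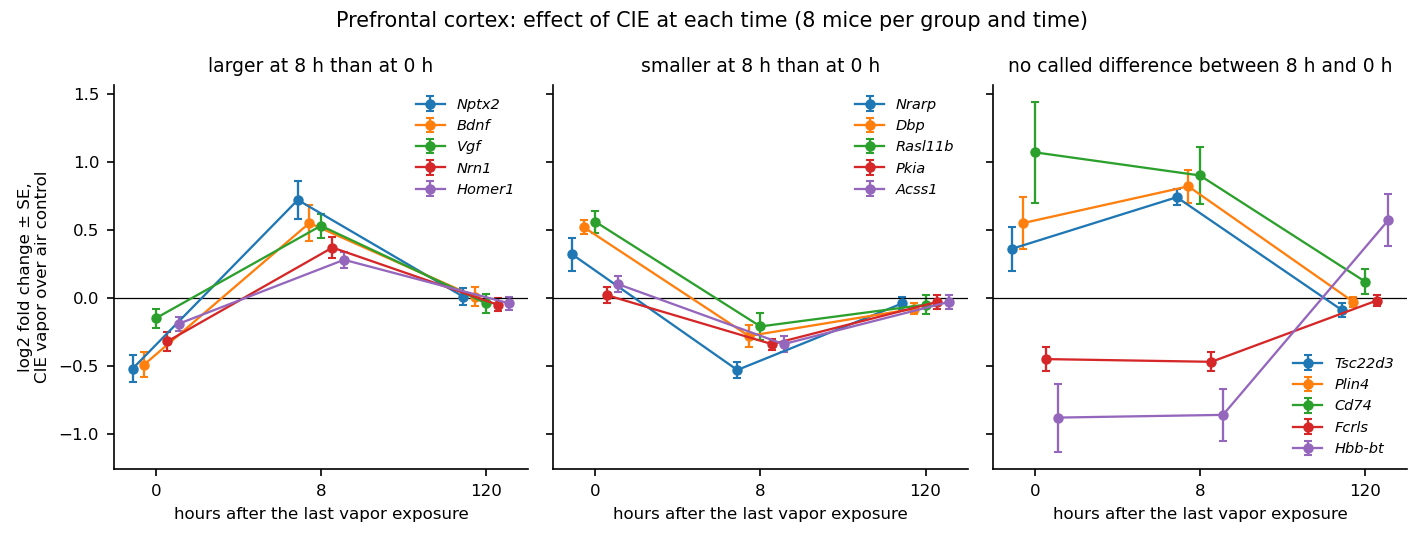
Log2 fold change, CIE over control, with its SE (y axis) in PFC at 0, 8 and 120 h (x axis, evenly spaced and not to scale in time), 8 mice per group and time. Left, genes with a larger effect at 8 h than at 0 h, such as Nptx2 (-0.52 at 0 h, 0.72 at 8 h); middle, genes with a smaller one, such as Nrarp (0.32 and -0.53); right, genes with no called difference between these times.

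At 120 h none of the 12835 probes (0%) was called by limma, and 438 had an unadjusted p of 0.05 or lower. The 8 h effect differed from the 120 h effect for 107 probes (0.834%), 56 larger and 51 smaller at 8 h, and for 171 without array 19. The largest positive differences were those of Plin4 (0.85, adjusted p = 0.0213, limma), Tsc22d3 (0.82, adjusted p = 0.00406) and Cdkn1a (0.78, adjusted p = 0.00968). The largest negative ones were the red cell genes Hba-a1 (-1.98, adjusted p = 0.0175), Hbb-bt (-1.43, adjusted p = 0.0175) and Alas2 (-0.70, adjusted p = 0.00445). Hba-a1 at 120 h had 11.90, 12.79 and 13.42 in CIE mice, against 11.63, 12.04 and 12.11 in control mice (log2 fold change 0.83, adjusted p = 1), so its 2 effects had opposite signs.

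Finally, values of the same genes in AMY and NAC at 8 h are set beside those of PFC. Regions were not tested against each other, because each was normalized on its own. The 8 h columns of the regions carry the same array numbers, and the study counts its arrays as animals times tissues. The regions were thus taken from the same mice, so likeness between them is not independent replication. Called were 5.72% of probes in PFC, 2.95% in AMY and 7.09% in NAC, the last 2 over probes also kept in PFC. Of the 27 glucocorticoid-induced genes 17 rose in PFC, 19 in AMY (1.89% of all genes) and 19 in NAC (4.37% of all genes). Sgk1 had 0.61 in PFC, 1.19 in AMY and 1.02 in NAC. Plin4 had 0.82 in PFC, 1.45 in AMY and 1.63 in NAC. Activity effectors rose in 15 of 33 in PFC, 3 of 32 in AMY and 6 of 29 in NAC. This list shares genes with a cluster that the study chose on the PFC samples, so the PFC count is not on equal terms with the others. Vgf had 0.53 in PFC, 0.17 (adjusted p = 0.0896, limma) in AMY and 0.37 (adjusted p = 0.00424) in NAC, and Bdnf had 0.55 in PFC and 0.29 (adjusted p = 0.149) in AMY. Nrarp had -0.53 in PFC, -0.72 in AMY and -0.55 in NAC, all called. Pkia had -0.34 in PFC, -0.01 (adjusted p = 0.976) in AMY and 0.01 (adjusted p = 0.919) in NAC.

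**Figure D5:**
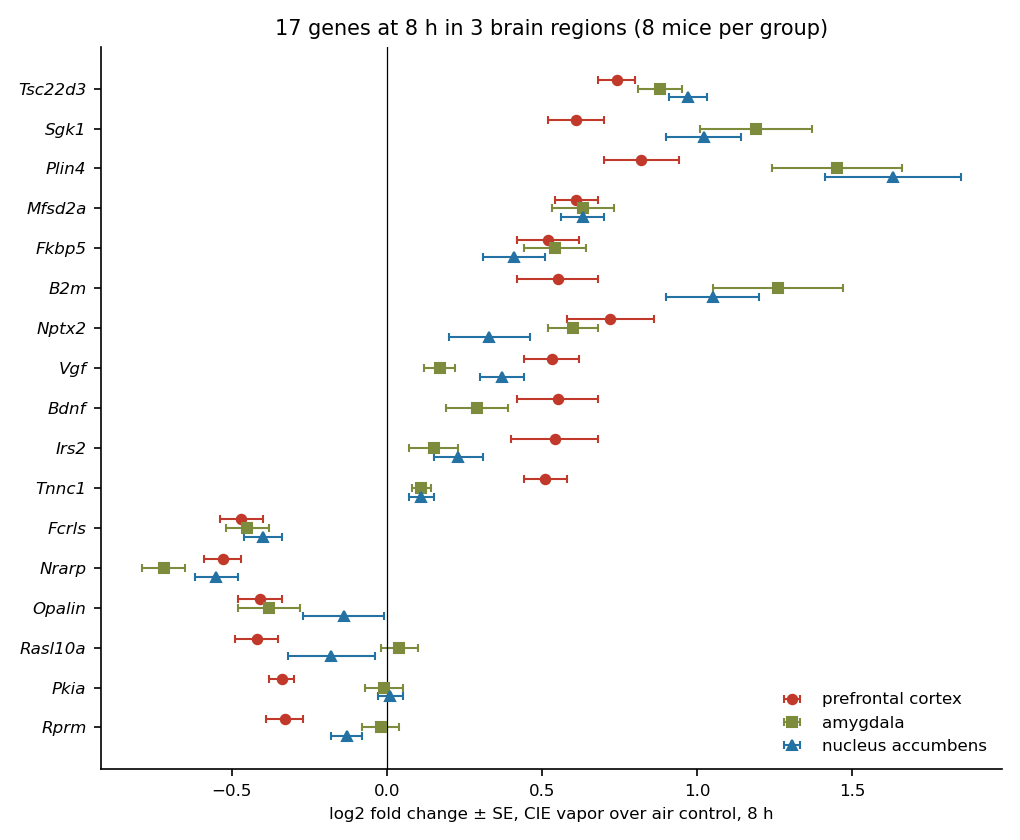
Log2 fold change, CIE over control, with its SE at 8 h (x axis) of 17 genes (rows) in PFC (circles), AMY (squares) and NAC (triangles), 8 mice per group. Bdnf did not pass the detection filter in NAC, and Pkia, at -0.34 in PFC, lies near 0 in the other regions.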

How the data were processed

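RNA of mouse PFC, AMY, NAC and liver was hybridised to Illumina MouseRef-8 v2 arrays, with samples counterbalanced over chips according to the study. Chip identities are not given in the sources used here, so no chip effect was tested. The authors deposited raw probe intensities with a detection p-value for each probe and array, and processed log2 values made with the lumi package (its version is not given), which held the same 12835 PFC probes. Here a probe was kept, as 12835 of 25697 were, if its detection p was at most 0.05 on over 80% of all 48 PFC arrays. The deposited intensities of the kept probes were then log2 transformed, in place of lumi's variance stabilization, and quantile normalized over these arrays. The 8 h groups were set against each other by limma 3.58.1 under R 4.3.3 (lmFit, eBayes, two-sided, Benjamini-Hochberg over all kept probes). Contrasts between times used all 48 arrays in 1 fit. AMY and NAC were treated in the same way, each on its own.

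Array numbers in the text are those of the column names. Within a tissue each array is a separate mouse. The number of arrays limits the precision of each value. Of the kept probes 12081 had 1 gene symbol, from GEO's platform annotation updated through Entrez numbers. Genes were represented by their brightest probe over the 48 arrays, and by the probe of smallest p for the largest changes. Named genes were the 12 largest rises and falls, the 3 of smallest p in each direction, genes of the study's PFC time clusters, up to 6 members of each list by p, and the 5 largest differences between times in each direction. Exceptions are stated. The members, lists and tests were chosen with earlier results of these data known. Alternatives changed the scaling, background correction, filter, fit, covariates and samples. The script was tested on simulated data. Liver was not used here. Promoter windows are from RefSeq (GRCm38.p6).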

Additional observations from a re-analysis of the deposited data

Results flagged for a closer look

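In each of 224 groups of 8 mice, the gap of the extreme mouse to its nearest neighbor was set against the range of the group, and 12 groups had a ratio above Dixon's 95% critical value. Chance gives about 1 in 20 such groups. CIE array 19 gave 3 of them, with log2 intensities of 10.17 for Tsc22d3 and 8.06 for Fam20a, each below the other CIE mice, and 11.22 for Rasl11b, above them. Among other CIE mice, array 11 was high for Tgm2 (8.73) and array 33 was low for Acss1 (8.12). Control array 10 was high for Fkbp4 (10.82) and Nrarp (8.53) and low for Hba-a1 (10.67). Control array 44 was low for Chst8 (9.06) and Cirbp (8.30). Control array 28 was high for Gadd45g (9.55) and control array 12 for Pglyrp1 (7.71).

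For 38 of the 112 named genes the effect at 8 h differed from that at 0 h. In brackets stand the 8 h effect minus the 0 h effect on the log2 scale and its adjusted p (limma, 8 mice per group and time). The 8 h effect was larger for Mfsd2a (0.46, 0.0193), Vgf (0.68, 0.000341), Adcyap1 (0.58, 0.00151), Fam20a (0.36, 0.00688), Nptx2 (1.24, 2.63e-06), Chst8 (0.50, 0.00205), Homer1 (0.47, 0.000139), Sorcs3 (0.41, 0.00154), Car12 (0.28, 0.000824), Rem2 (0.30, 0.000891), Fscn1 (0.37, 0.00233), Nrn1 (0.68, 8.3e-05), Bdnf (1.04, 4.5e-05), Slc7a5 (0.27, 0.0235), Fosb (0.56, 0.001), Egr4 (0.97, 0.00431), Egr1 (0.80, 0.0286), Dusp4 (0.31, 0.00546), Cx3cl1 (0.31, 0.00188), Pglyrp1 (0.44, 0.00217), Chac1 (0.46, 0.0198), Sars (0.24, 0.0162) and Galnt9 (0.85, 5.09e-05). It was smaller for Irf3 (-0.27, 0.0451), Nrarp (-0.85, 2.99e-05), Ntsr2 (-0.36, 0.0176), Opalin (-0.37, 0.014), Acss1 (-0.44, 0.00101), Nr1d1 (-0.33, 0.00222), Tef (-0.43, 0.00814), Dbp (-0.80, 6.31e-08), Slc25a38 (-0.28, 0.000554), Ntng1 (-0.78, 0.0437), Rasl11b (-0.77, 0.000264), Calb2 (-1.62, 0.0396), Pkia (-0.37, 0.00145), Rasl10a (-0.47, 0.00874) and Wnt7a (-0.36, 0.0472).

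For 31 of the named genes the effect at 8 h differed from that at 120 h, given in the same way. The 8 h effect was larger for Tsc22d3 (0.82, 0.00406), Mfsd2a (0.67, 0.00394), Cdkn1a (0.78, 0.00968), Xdh (0.36, 0.0061), Plin4 (0.85, 0.0213), Sgk1 (0.67, 0.0241), Nfkbia (0.43, 0.0175), Slc2a1 (0.47, 0.0345), Rhob (0.44, 0.0157), Vgf (0.57, 0.00905), Adcyap1 (0.53, 0.0127), Fam20a (0.41, 0.00852), Nptx2 (0.71, 0.0169), Chst8 (0.40, 0.0375), Homer1 (0.32, 0.0243), Rem2 (0.25, 0.0152), Nrn1 (0.41, 0.0413), Fosb (0.43, 0.0324), Pglyrp1 (0.49, 0.00406) and Arpp21 (0.39, 0.0369). It was smaller for Fcrls (-0.45, 0.0169), Hba-a1 (-1.98, 0.0175), Hbb-bt (-1.43, 0.0175), Alas2 (-0.70, 0.00445), Nrarp (-0.48, 0.0381), Opalin (-0.41, 0.0175), Dnaja4 (-0.26, 0.00378), Slc25a38 (-0.21, 0.0282), Pkia (-0.31, 0.0169), Lrrc75a (-0.44, 0.00662) and Rasl10a (-0.42, 0.0482).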

How the results depend on the processing

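The 8 h count of 734 probes was 1108 with array weights and 161 with thalamic and oligodendrocyte marker means as covariates. In the latter fit 68 of 105 named calls were lost, and Ntng1 and Calb2 turned to 0.02 each (from negative values that had not passed). Calb2 is itself a member of the thalamic marker list. It was thus adjusted for a mean that holds its own level, and its move toward 0 is in part built in. Leaving out 1 mouse gave 483 to 1297 probes: 485, 488 and 483 without CIE arrays 33, 49 and 67, and 1297 without CIE array 19. The 8 h minus 0 h count, 492, was 342 to 883 over the fits without 1 CIE mouse of 8 h. The 8 h minus 120 h count, 107, was 166 on the authors' processed values, 215 with array weights and 64 to 171 over those fits, with 66 and 64 without arrays 33 and 67. All other settings gave 522 to 981 probes at 8 h. These were median scaling, normexp, the authors' values, no detection filter or one on the 16 arrays, quantile normalization of the 16 arrays, all 6 groups in 1 fit, removal of Grubbs outliers, an intensity trend and, chosen after seeing the data, the 2 olfactory bulb fits. Normexp raised the median size of called changes to 0.317 and the authors' values lowered it to 0.145, beside 0.188. No called named gene changed direction in any setting. Leaving out 1 mouse ended the calls of 27 of the 105 called named genes in at least 1 fit. The cause was not tested.

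With the replicate number of the sample titles as a block, on the authors' processed values, the replicate block gave 816 probes at 8 h, 676 for 8 h minus 0 h and 155 for 8 h minus 120 h, and 13 of the 105 named calls were lost. These values do not settle whether the numbers pair the mice. Correlations of deviations within the 8 pairs were -0.168 to 0.368, with 5 over 0.1, and 2 of 8 CIE mice correlated best with their own number. The pairs were not tested against pairs of unlike number.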

Other observations

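Other lists add to the picture of the PFC at 8 h. None of 78 genes of oxidative phosphorylation (6 at an unadjusted p of 0.05 or lower) and none of 16 dopamine and serotonin receptor genes (2 unadjusted) was called by limma, against 6.46% of all genes. Of 57 ribosomal protein genes 1 fell, and of 24 genes of cholesterol synthesis 1 fell. Of 182 solute carriers 5 rose and 13 fell, where 2.74% of all genes rose and 3.73% fell. Among them were Slc2a13, a myo-inositol transporter (log2 fold change 0.26 ± 0.04, adjusted p = 0.00131), and Slc8b1, the mitochondrial sodium-calcium exchanger (-0.22 ± 0.03, adjusted p = 0.00152), both chosen after their values were seen.

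Of 350 measured genes of the study's list of immune genes 19 rose and 14 fell, with a median of 0.00. Over all genes 2.74% rose and 3.73% fell, which is to be read beside the counts that follow too. Of 13 histone genes 2 fell, and with the olfactory bulb covariate 2 rose and none fell. Of 66 mitochondrial ribosomal proteins 1 rose and 3 fell, and of 174 zinc finger genes named Zfp 1 rose and 4 fell.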
